A study of Mus musculus with 6 samples.

Results

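The giant cadherins of the Fat and Dachsous families, with the kinase that modifies them, were followed in differentiating mouse muscle cells with and without *Hnrnpa2b1*. The set held 7 genes (*Fat1*, *Fat2*, *Fat3*, *Fat4*, *Dchs1*, *Dchs2* and *Fjx1*) of the 46078 genes listed in the count table. The family was selected on its levels in knockout (KO) against wild type (WT) libraries, in which *Fat2* and *Dchs2* differed in opposite directions, so every difference of a member between KO and WT is given as a description, without a test. *Hnrnpa2b1* encodes an RNA-binding protein of the hnRNP family. Total RNA was sequenced from C2C12 cells, an established mouse myoblast line, after 2 days of serum withdrawal with ITS supplement. The 3 KO libraries carried a CRISPR-Cas9 knockout of *Hnrnpa2b1* and the 3 WT libraries did not. The methods describe separate KO and WT clones, isolated with cloning rings after puromycin selection of cells given the Cas9 plasmid, and do not state which clone gave which library. The p-values below therefore measure only the spread between these samples, which may hold differences between clones.

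Fat and Dachsous cadherins are single-pass membrane proteins with very long extracellular chains of cadherin repeats. A Fat protein on one cell binds a Dachsous protein on its neighbour, and the pair passes on information about the direction of a tissue (planar cell polarity) and feeds into the Hippo pathway, which controls the growth regulators YAP and TAZ. *Fjx1* is the vertebrate counterpart of fly Four-jointed, a Golgi kinase that phosphorylates cadherin repeats and tunes this binding. In mammals FAT4 and DCHS1 are the best known ligand and receptor pair, while FAT1, FAT2 and FAT3 act at cell edges and on the actin cytoskeleton.

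The members lie on different chromosomes except for *Fat4* and *Dchs2*, which are both on chromosome 3. In GENCODE vM21 (GRCm38), all are protein coding. *Fat1* spans chr8:44935447-45052257 on the plus strand and *Fat2* spans chr11:55250609-55336564 on the minus strand. *Fat4* spans chr3:38886940-39011985 and *Dchs2* spans chr3:83127948-83357209, both on the plus strand. *Dchs1* spans chr7:105752990-105787654 and the single-exon gene *Fjx1* spans chr2:102449366-102452499, both on the minus strand. *Fat3*, also on the minus strand, spans chr9:15910189-16501285 in GENCODE, while the deposited gene model ends at 16378231.

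Because the repeats of these cadherins resemble each other, the longest transcripts of the members were compared for identical stretches, which bears on how far a read could be assigned to the wrong paralog. Over the 21 pairs, the longest identical stretch was between 12 and 29 bases, against reads of 150 bases from each end. The stretches that *Fat2* shares with *Fat1* and *Dchs2* with *Dchs1* are shown, each found once in either transcript and lying in coding exons:
Fat1 and Fat2: tcgatgagaacgacaac
Dchs1 and Dchs2: gtgaatgacaatgagccc
The first lies at chr8:45009857-45009873 in exon 5 of 27 of *Fat1* and at chr11:55284624-55284640 in exon 10 of 24 of *Fat2*. The second lies at chr7:105771502-105771519 in exon 2 of 21 of *Dchs1* and at chr3:83129856-83129873 in exon 1 of 20 of *Dchs2*. Neither stretch is as long as a read.

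The start of *Dchs2*, the member with the largest fold higher in KO, is shown from RefSeq (GRCm38.p6), which had promoter entries for 5 of the 7 members. This RefSeq start lies 0.421 kb upstream of the GENCODE gene start at 83127948. The 250 bases before its RefSeq start, chr3:83127277-83127526 on the plus strand, are printed with CpG dinucleotides in capitals:
Dchs2 upstream: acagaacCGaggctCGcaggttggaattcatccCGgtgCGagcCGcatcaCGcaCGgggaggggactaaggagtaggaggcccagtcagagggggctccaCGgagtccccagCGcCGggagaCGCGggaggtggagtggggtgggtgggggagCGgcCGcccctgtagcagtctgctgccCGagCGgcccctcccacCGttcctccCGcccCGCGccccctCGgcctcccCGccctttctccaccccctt
This stretch held 22 CpGs. With the next 50 bases the window held 27, against a median of 7 over 32851 promoters, and 15.5% of those promoters held as many. Read on both strands, the same window held no CANNTG, the E-box letters read by muscle basic helix-loop-helix factors, and no GGAATG, the letters read by TEAD factors. Over all promoters, 72.3% held CANNTG and 14.7% held GGAATG. The missing letters say only that they are not in this window.

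The libraries held between 33605258 and 40558740 counts. *Hnrnpa2b1* itself was at 159, 195 and 249 CPM (counts relative to library size, scaled by TMM factors) in KO replicates 1, 2 and 3 and at 225, 229 and 252 CPM in WT. The log2 fold change (KO over WT, as throughout) was −0.23 ± 0.18 (SE, n = 3 per genotype, edgeR quasi-likelihood adjusted p = 0.381). Read counts over a whole gene do not check a small Cas9 deletion or insertion, so they do not test the labels. The methods state that the knockout in the clones was checked at the protein level, by immunofluorescence and Western blot. The 7 myogenic markers summed to between 8044 and 15189 CPM in KO and between 11477 and 15220 CPM in WT. The sums overlapped, while single markers were separate in either direction: *Myh3*, an embryonic myosin, had 1007 to 4146 CPM in KO and 4474 to 5811 CPM in WT, and *Myf5* was also lower in every KO library. *Myod1* had 171 to 270.1 CPM in KO and 96.0 to 126 CPM in WT, and *Cdh15* was also higher in every KO library. In bulk RNA, fewer cells that express a gene and less RNA per cell cannot be told apart.

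*Fat2* was nearly absent from the KO libraries and plainly present in WT. It had 0.755, 0.664 and 0.513 CPM in KO replicates 1, 2 and 3, from 27, 29 and 21 counts, and 59.3, 61.8 and 58.3 CPM in the WT replicates, from 2049, 2028 and 2165 counts. The groups did not overlap and neither genotype held a library that stood apart. The mean was 92.9-fold lower in KO, with a log2 fold change of −6.53 ± 0.19 (SE, n = 3 per genotype). Of the 14828 genes tested, 0.256% had a log2 fold change of that size in either direction. In TPM, transcript abundance corrected for length and library size, *Fat2* was at 0.035, 0.030 and 0.029 in KO and at 2.85, 3.07 and 2.56 in WT. FAT2 is known for its part in the collective movement of epithelial cells.

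*Fat1*, a cadherin that regulates actin at cell edges and is needed for muscle patterning, did not separate the genotypes. Its level was 70.6, 124 and 196 CPM in KO and 134, 146 and 165 CPM in WT. KO replicates 1 and 2 were below and KO replicate 3 above every WT library. The log2 fold change was −0.19 ± 0.32 (SE, n = 3 per genotype), and without KO replicate 1 it changed sign to 0.10. The KO libraries ranged over 2.78-fold and the WT libraries over 1.24-fold. The antisense gene *Gm2366*, which shares 487 exon bases with *Fat1*, had 7 to 38 counts per library.

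*Fat4*, the Fat protein that receives the DCHS1 signal, was high in only part of the KO libraries. It had 9.21, 99.1 and 92.1 CPM in KO replicates 1, 2 and 3, and 11.3, 18.5 and 18.2 CPM in WT. KO replicates 2 and 3 were above every WT library and KO replicate 1 was below every one, so the groups overlapped. The log2 fold change was 2.06 ± 0.72 (SE, n = 3 per genotype), and 2.57 ± 0.21 without KO replicate 1. The KO libraries ranged over 10.8-fold, or 3.42 on the log2 scale, and 1.05% of the tested genes had as large a range in KO. An antisense gene, *C230034O21Rik*, shares 1209 exon bases with *Fat4* on the other strand and had 11, 109 and 72 counts in KO against 6, 15 and 23 in WT. Whether counting used strand is not given in the sources used here, so reads from the shared bases cannot be told apart.

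*Fat3*, best known from the retina and nervous system, had at most 1 count in any library and was listed at 0 TPM in every one. The upper exact Poisson 95% limit was 0.103 CPM in KO replicate 1, which had 0 counts, and 0.128 to 0.170 CPM in the other libraries, which had 1 count each. It did not pass the filter on low counts and has no fold change.

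*Dchs2*, the less studied Dachsous paralog, was low in WT and higher in every KO library. It had 9.07, 8.70 and 8.62 CPM in KO, from 324, 380 and 353 counts, and 0.550, 0.518 and 0.647 CPM in WT, from 19, 17 and 24 counts. The groups did not overlap. The mean was 15.4-fold higher in KO, with a log2 fold change of 3.93 ± 0.24 (SE, n = 3 per genotype). The KO libraries agreed closely, ranging over 1.05-fold, and 98.3% of the tested genes had as large a range in KO. In TPM it was at 0.507, 0.497 and 0.584 in KO and 0.034, 0.035 and 0.040 in WT.

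*Dchs1*, the ligand of FAT4, was lower in KO, but one WT library lay close to the KO level. It had 0.839, 0.252 and 0.513 CPM in KO, from 30, 11 and 21 counts, and 7.38, 1.25 and 5.71 CPM in WT, from 255, 41 and 212 counts. The groups did not overlap in CPM, although the exact Poisson 95% intervals of KO replicate 1 (0.566 to 1.20 CPM) and WT replicate 2 (0.896 to 1.69 CPM) did. These intervals, like those for *Fat3*, cover counting error only. The mean was 8.94-fold lower in KO, with a log2 fold change of −3.17 ± 0.70 (SE, n = 3 per genotype), and −3.63 without WT replicate 2. The WT range was 2.51 on the log2 scale, and 0.681% of the tested genes had as large a range in WT.

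*Fjx1*, the kinase, was low in every library. It had 15, 6 and 13 counts (0.420, 0.137 and 0.317 CPM) in KO and 8, 29 and 16 counts (0.231, 0.884 and 0.431 CPM) in WT. The groups overlapped, and the log2 fold change was −0.82 ± 0.62 (SE, n = 3 per genotype), or −0.21 without WT replicate 2. WT replicate 2, the lowest WT library for *Dchs1*, was the highest for *Fjx1*.

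**Figure D1:**
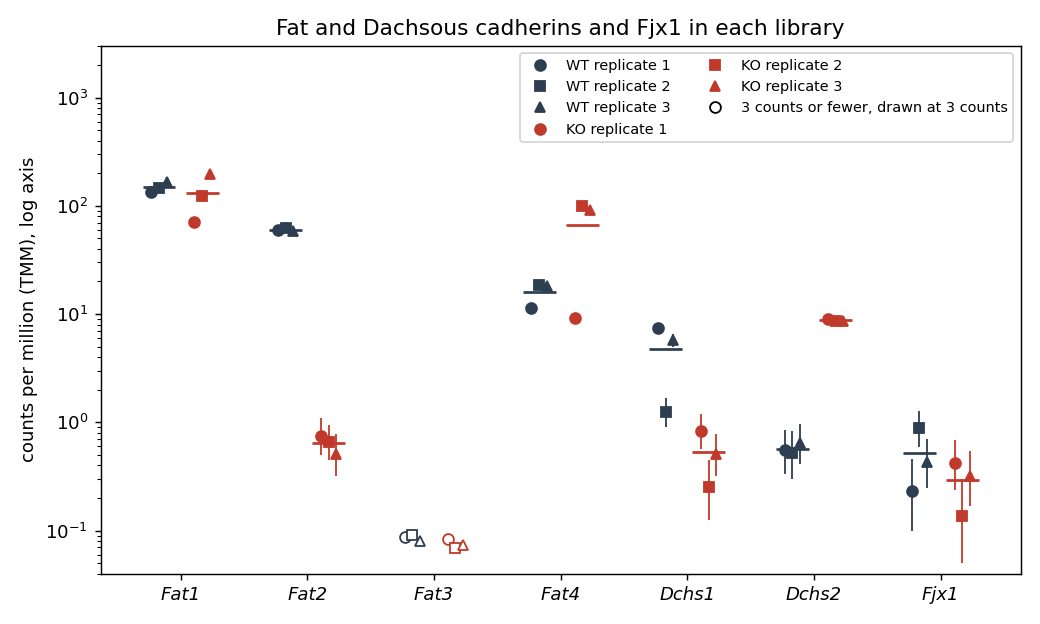
TMM-scaled CPM of each member in each library on a log axis, with the 3 replicates of WT (dark) and KO (red) as separate symbols, the group mean as a bar and exact Poisson 95% intervals as thin lines. *Fat2* sits between 58.3 and 61.8 in WT and below 1 in KO, *Dchs2* is placed the other way round, and KO replicate 1 of *Fat4* sits apart from the other KO libraries. Open symbols mark *Fat3*, drawn at the level of 3 counts.

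Of the 7 members, 6 passed the filter on low counts. In the fit across all genes, 1 of these was past the threshold (adjusted p under 0.05) on the higher side, where 12.1% of all tested genes were, and 2 on the lower side, where 10.6% were, out of 22.7% in either direction. The groups were fully separate for 3 of the 6, as they were for 44.3% of all tested genes. As the contrast chose the members, nothing is read from these counts. The median size of the log2 fold change over all tested genes was 0.42.

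Per length, the mix of paralogs within each family differed between the genotypes. As the family was selected on *Fat2* and *Dchs2*, this in part restates that choice. Summed TPM of the Fat family was 3.69, 10.5 and 16.2 in KO and 10.2, 11.9 and 11.3 in WT. The Dachsous total was 0.560, 0.511 and 0.617 TPM in KO and 0.567, 0.116 and 0.419 TPM in WT. In TPM both totals overlapped between the genotypes. As CPM per kilobase of GENCODE exons, chosen after seeing the data, the Dachsous total did not overlap, at 0.917, 0.830 and 0.846 in KO and 0.718, 0.161 and 0.577 in WT.

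*Dchs2* made up 90.5%, 97.3% and 94.5% of the Dachsous TPM in the KO replicates and 6.00%, 30.5% and 9.57% in WT. *Dchs1* held the rest, so the leading Dachsous transcript was *Dchs1* in every WT library and *Dchs2* in every KO library. *Fat2* made up 27.8%, 25.8% and 22.6% of the Fat TPM in WT and 0.938%, 0.284% and 0.176% in KO. *Fat1* led the Fat family in every library, with 66.3% to 70.4% in WT and 56.8% to 88.4% in KO. *Fat4* took 5.46% to 7.82% in WT and 10.7%, 42.9% and 29.7% in KO. In KO replicate 1 its share was higher only over a smaller Fat total of 3.69 TPM. *Fat4* itself had 0.395 TPM there, below every WT library (0.560 to 0.927 TPM). Depth behind the TPM values is the same libraries' counts, so shares of *Dchs1* and *Fat2* in KO rest on 11 to 30 counts and those of *Dchs2* in WT on 17 to 24.

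**Figure D2:**
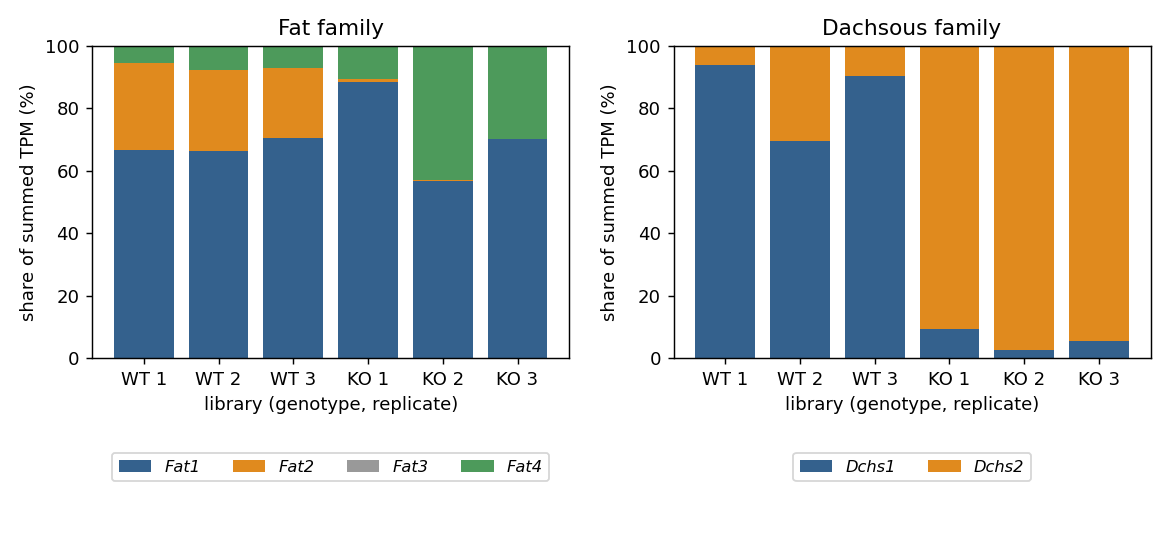
Share of each paralog in the summed TPM of its family, in percent, for each library. *Dchs1* makes up most of the Dachsous bar in the 3 WT libraries and *Dchs2* in the 3 KO libraries, and the *Fat2* segment of the Fat bars is below 1% in KO.

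In WT the order of mean TPM was *Fat1* (7.56 ± 0.64, SD, n = 3), *Fat2* (2.83 ± 0.25), *Fat4* (0.762), *Dchs1* (0.331), *Fjx1* (0.116), *Dchs2* (0.0365) and *Fat3*, listed at 0. The ranges of neighbours in this order were separate except for *Dchs1* and *Fjx1*. In KO, *Fat1*, *Fat4* and *Dchs2* came first with ranges that overlapped from one to the next. *Fjx1*, *Dchs1* and *Fat2* followed, also overlapping, all below *Dchs2* in every library. With counts per kilobase of GENCODE exons in place of TPM, chosen after seeing the data, *Fat4* and *Dchs1* overlapped too in WT.

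The members differed in how far libraries of one genotype lay apart. Over all tested genes the median range was 0.54 on the log2 CPM scale in KO and 0.36 in WT. *Fat2* and *Dchs2* were below both medians, while *Fjx1* and *Dchs1* were above both. *Fat4* exceeded the medians mostly through KO.

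**Figure D3:**
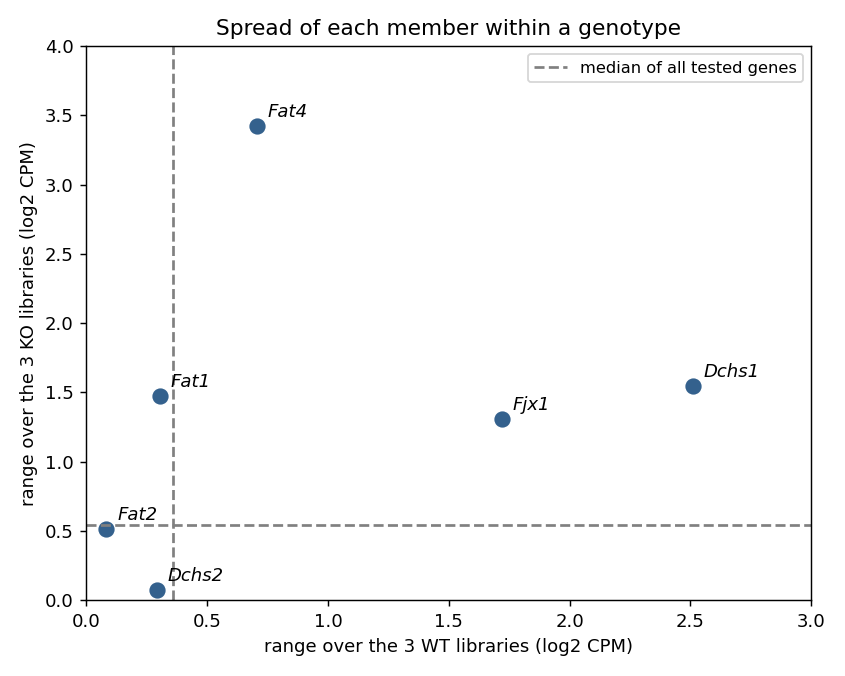
Range of log2 CPM over the 3 KO libraries (vertical axis) against the range over the 3 WT libraries (horizontal axis) for the 6 tested members, with the medians of all tested genes as dashed lines. *Fat4* lies at 3.42 in KO and *Dchs1* at 2.51 in WT, and *Dchs2* lies lowest in KO.

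The genes nearest to each member mostly did not share its difference. Distances run between the lower coordinates of the genes, whatever their strand. Beside *Fat2*, the lower coordinate of *Slc36a1*, an amino acid transporter gene, lay 46.3 kb from the 3' end of *Fat2*. *Slc36a1* was higher in KO (log2 fold change 0.73 ± 0.22, SE, edgeR quasi-likelihood adjusted p = 0.047). The call held without KO replicate 1 and was lost without any other 1 library (adjusted p up to 0.179). Beside *Dchs2*, *Plrg1*, a splicing factor gene whose lower coordinate is 72.4 kb away, had a log2 fold change of −0.19 ± 0.11 (SE, edgeR adjusted p = 0.227).

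Farther along, 638 kb from the start of *Dchs2*, *Sfrp2*, a secreted Wnt antagonist, had 7.39, 294 and 144 CPM in KO and 0.347, 0.0609 and 0.323 CPM in WT. The groups did not overlap (log2 fold change 9.21 ± 1.46, SE, edgeR adjusted p = 0.00617), with values of 8.24 without KO replicate 2 and 9.76 without KO replicate 1. KO replicate 1 was again the lowest KO library, as for *Fat4*. Around *Fat4*, the nearest gene was its antisense partner *C230034O21Rik*, which overlaps it and has its lower coordinate 12.4 kb from that of *Fat4*. Its log2 fold change was 1.86 ± 0.75 (SE, edgeR adjusted p = 0.110). Reads from the 1209 exon bases that it shares with *Fat4* cannot be told apart, so this value is not independent of *Fat4*. *Ankrd50*, which acts in endosomal recycling, fell by 1.21 ± 0.13 on the log2 scale (SE, edgeR adjusted p = 0.00184). *Spry1*, an inhibitor of receptor tyrosine kinase signalling, fell by 1.22 ± 0.24 (SE, edgeR adjusted p = 0.0130), a call lost without WT replicate 1 (adjusted p = 0.0557) and without WT replicate 3 (adjusted p = 0.0566). Over the 10 Mb windows that hold the members, median log2 fold changes of the tested genes lay between −0.26 and 0.14.

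**Figure D4:**
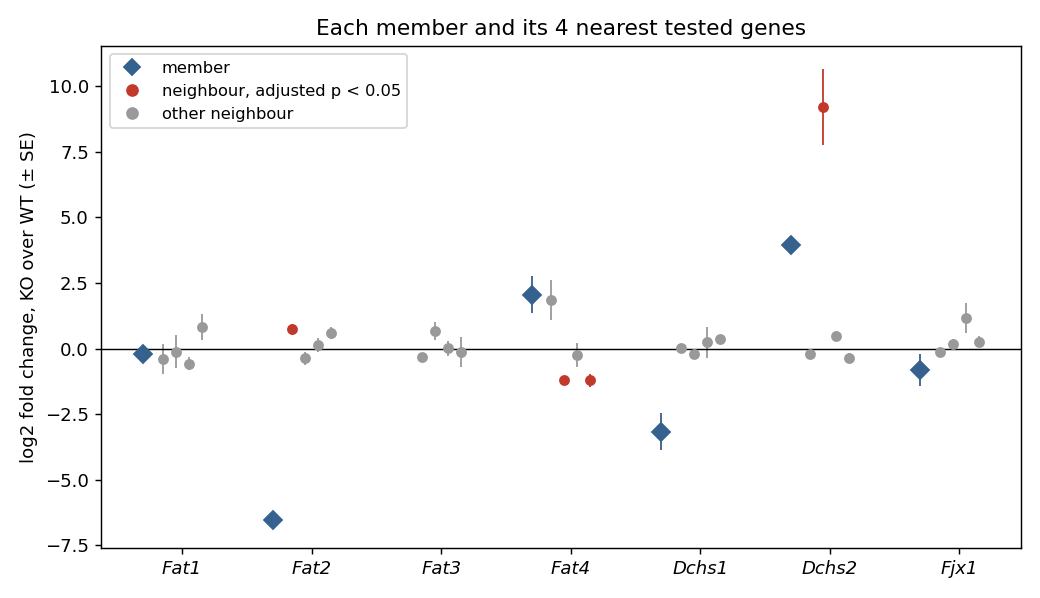
Log2 fold change of KO over WT with its standard error for each tested member (diamonds) and its 4 nearest tested genes on the chromosome (circles, red where the edgeR adjusted p is under 0.05). *Sfrp2*, at 9.21, is the one neighbour of *Dchs2* past the threshold, and *Ankrd50* and *Spry1* lie opposite to *Fat4*.

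Genes with a library pattern like that of a member were ranked by Pearson's r of log2 CPM over the 6 libraries, among 10750 genes. For *Fat2* these were *Fahd2a* (r = 0.999), *Rorb*, a nuclear receptor gene (r = 0.998), and *Sptbn1*, a spectrin gene (r = 0.997). *Rorb* had at most 0.0229 CPM in KO and 15.3 CPM or more in each WT library. For *Dchs2* they were *Scara3* (r = 0.998), *Fads6* (r = 0.997) and *Cpeb1*, a regulator of translation (r = 0.997). *Scara3* had 22.7, 26.6 and 31.7 CPM in KO and no count in WT.

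At r of 0.95 or more, *Fat2* had 439 genes (4.08% of those compared) and *Dchs2* had 482 (4.48%). For *Dchs1*, 102 genes did, led by *Tmem41a* (r = 0.993), and for *Fat4* 73 did, led by *Cep78* (r = 0.992). *Fat1* and *Fjx1* had 9 each, led by *Chd4* (r = 0.986) and *Trio* (r = 0.976). The points are 6 libraries of 2 genotypes, and all genes share those libraries and their depth, so the correlations are a description and carry no p.

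Of 21 tested partners of Fat and Dachsous proteins, 3 rose and 3 fell in KO at an edgeR quasi-likelihood adjusted p under 0.05, which is 28.6% called against 22.7% of all tested genes, and the median log2 fold change was 0.08 against 0.03 over all genes. *Ptprf*, the receptor phosphatase LAR that works with FAT2, rose from 91.9, 90.2 and 88.0 CPM in WT to 190, 207 and 167 CPM in KO (log2 fold change 1.06 ± 0.13, SE, adjusted p = 0.00259). *Dlg5*, a scaffold protein, rose by 0.76 ± 0.15 and *Rere*, an atrophin, by 0.64 ± 0.16. *Amotl1*, an angiomotin that binds YAP, fell by 0.86 ± 0.21, the actin regulator *Enah* fell by 0.58 ± 0.15 and the kinase *Csnk1e* fell by 0.54 ± 0.15. *Fbxl7*, an F-box protein that acts below Fat, had a log2 fold change of −1.33 ± 0.66 and did not pass (adjusted p = 0.178). *Rere* lost its call in 9 of 14 alternatives and *Enah* in 7, both with a replicate block among them (adjusted p = 0.0628 and 0.0647). *Csnk1e* lost its call in 6, *Amotl1* in 5 and *Dlg5* in 3, while *Ptprf* kept its call in all 14. With a library left out, 6.01% to 30.6% of all tested genes were called. The list had 5 rises and 4 falls without KO replicate 1, and likewise without the filter on counts. It had 2 rises and no fall without KO replicate 2, and 3 rises and no fall without KO replicate 3. There was 1 rise and no fall without WT replicate 1, 2 rises and no fall without WT replicate 2, and 1 of each without WT replicate 3.

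Of 29 tested Hippo pathway genes, 2 rose and 5 fell at an edgeR adjusted p under 0.05. That is 24.1% called, close to the 22.7% of all tested genes, with a median log2 fold change of −0.05. *Yap1*, which encodes the YAP coactivator, had 57.0, 66.1 and 60.7 CPM in KO and 95.7, 90.4 and 81.2 CPM in WT, and fell by 0.54 ± 0.12 (SE, adjusted p = 0.0199). It lost this call in 7 of 14 alternatives, among them those without KO replicate 3, WT replicate 1 and WT replicate 2, and its adjusted p was 0.0506 with a replicate block and up to 0.207 by limma on TPM. *Wwtr1*, which encodes TAZ, fell by 0.72 ± 0.16 and *Tead2*, a DNA-binding partner of both, by 0.96 ± 0.18. The call of *Wwtr1* was lost without any 1 of the WT libraries (adjusted p = 0.0512 to 0.0762), and that of *Tead2* without WT replicate 1 (adjusted p = 0.0545). *Tead1*, *Tead3*, *Tead4*, *Vgll3* and *Vgll4* did not pass, with log2 fold changes of −0.64 to −0.02. *Vgll2*, a muscle cofactor of TEAD proteins, fell by 2.57 ± 0.56 from a low level (1.01 to 1.59 CPM in WT), with −3.21 without KO replicate 1, and *Mob1b*, a subunit of the LATS kinase complex, fell by 0.91 ± 0.14. *Frmd6*, the Willin protein of the upstream complex, rose by 1.48 ± 0.25 and the kinase *Taok2* rose by 0.77 ± 0.14. The calls of *Taok2* and *Vgll2* were lost without WT replicate 1, and that of *Vgll2* also without WT replicate 3. Without KO replicate 1 the list had 12 calls, where 30.6% of all tested genes were called, and without WT replicate 1 it had 2, where 6.01% were. Rises and falls were 3 and 8 by DESeq2, 3 and 9 without the filter on counts, and 4 and 4 with at least 1 CPM in 3 libraries.

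Of 18 tested YAP and TAZ target genes, 5 rose and none fell at an edgeR adjusted p under 0.05. That is 27.8% called against 22.7% of all tested genes, and the median log2 fold change was −0.01. The split changed with the processing: 5 rose and 2 fell by DESeq2, 6 and 3 without the filter on counts, 6 and 1 without KO replicate 1, and 5 and 2 without KO replicate 3. *F3*, tissue factor, had 14.2, 37.5 and 26.4 CPM in KO and 5.70, 7.41 and 5.74 CPM in WT, and rose by 2.05 ± 0.34 on the log2 scale (SE, adjusted p = 0.00700). *Crim1* rose by 1.11 ± 0.23, *Ccdc80*, an extracellular matrix protein, by 1.04 ± 0.21, *Asap1* by 0.87 ± 0.16 and *Myof*, which acts in myoblast fusion, by 0.68 ± 0.16. The other 13, among them the widely used targets *Ccn1*, *Ccn2* and *Ankrd1*, did not pass. Without WT replicate 1 and without WT replicate 3 the list had 1 call each.

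Of 20 tested core planar cell polarity genes, 2 rose and 2 fell at an edgeR adjusted p under 0.05. That is 20% called, below the 22.7% of all tested genes, with a median log2 fold change of −0.13. *Celsr3*, a seven-pass cadherin, had 1.23, 0.0916 and 0.439 CPM in KO and 7.32, 2.38 and 6.82 CPM in WT, and fell by 3.25 ± 0.80 (SE, adjusted p = 0.0260). Without KO replicate 1 its value was −4.38. The order of its libraries was that of *Dchs1*, with KO replicate 2 lowest in KO and WT replicate 2 lowest in WT. *Fzd3*, a Frizzled receptor, had 21.4, 6.94 and 7.74 CPM in KO and 3.73, 4.05 and 3.88 CPM in WT, and rose by 1.63 ± 0.43. Without KO replicate 1 its rise was 0.91, and the call was lost with a replicate block and without any 1 of the WT libraries. *Invs*, inversin, rose by 1.13 ± 0.25, while *Intu*, a planar polarity effector, fell by 0.84 ± 0.17. Without KO replicate 3 the list had 2 calls, those of *Celsr3* and *Invs* being lost. Without WT replicate 1, and likewise without WT replicate 3, edgeR gave 0 calls, with 5 genes at an unadjusted p under 0.05, against 5 calls by DESeq2 on all libraries.

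**Figure D5:**
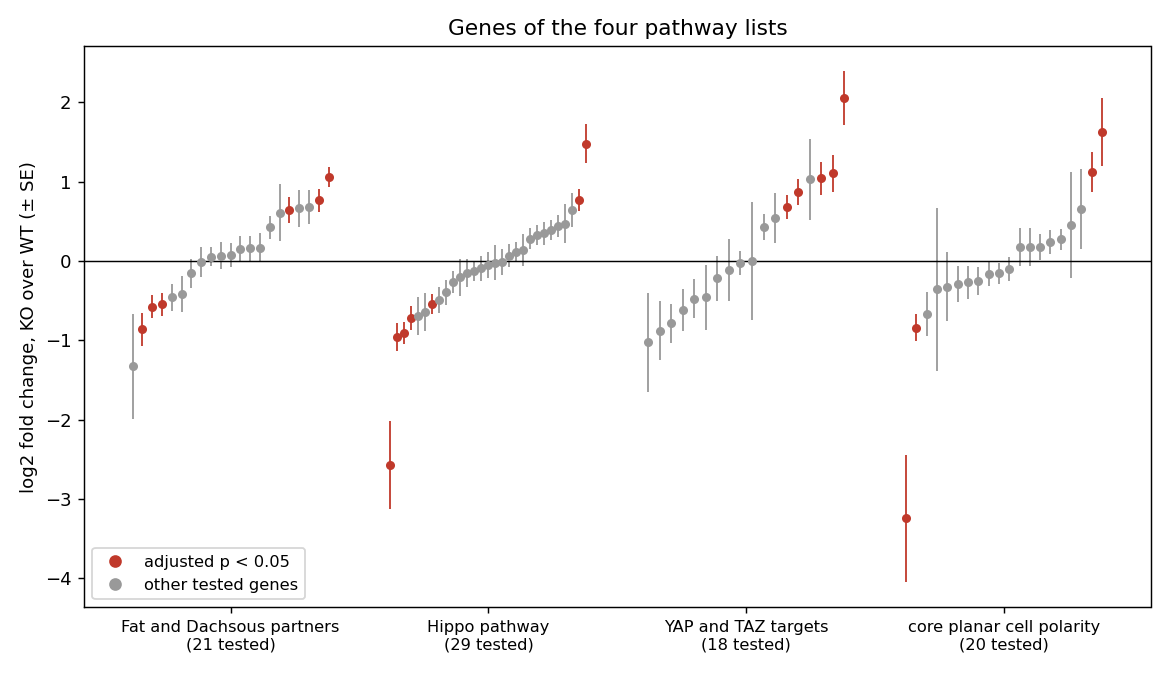
Log2 fold change of KO over WT with its standard error for each tested gene of the 4 pathway lists, ordered within a list and red where the edgeR adjusted p is under 0.05. Called genes lie on both sides of 0 in 3 lists, and the 5 targets called in this fit lie above 0, while DESeq2 also called 2 below.

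Markers of other cell types were measured beside these results, and their summed levels did not overlap between the genotypes except for the immune list. The 4 fibroblast markers summed to between 25.9 and 69.9 CPM in KO and between 5.61 and 7.41 CPM in WT, with *Dpt* at 3.78, 56.3 and 35.0 CPM, *Pi16* at 15.8, 5.04 and 13.5 CPM and *Pdgfra* at 6.32, 8.59 and 12.01 CPM in KO replicates 1, 2 and 3. In WT, *Dpt* had 0.396 to 0.665 CPM, *Pi16* had 1.36 to 3.54 CPM and *Pdgfra* had 3.47 to 4.93 CPM. *Tcf21* of that list had 0 CPM in every library. The 4 neuronal markers summed to 12.6 to 28.5 CPM in KO and 2.00 to 3.37 CPM in WT, mostly from *Tubb3*. The 5 epithelial markers summed to 0.802 to 5.85 CPM in KO and 0.231 to 0.701 CPM in WT. That separation came from *Krt14*, while *Cdh1* overlapped and 3 or 4 of the 5 genes had at most 3 counts in every library. The 4 endothelial markers summed to 0.196 to 0.733 CPM in KO and 1.19 to 2.05 CPM in WT, separated by *Kdr* alone (0.0560 to 0.366 CPM in KO and 0.723 to 1.37 CPM in WT), as *Pecam1*, *Cdh5* and *Tek* overlapped. The 4 immune markers summed to 2.22 to 3.47 CPM in KO and 1.92 to 2.40 CPM in WT. Their part in the differences of the members was not tested.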

How the data were processed

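RNA from 6 libraries (3 KO, 3 WT) was analysed from the gene table of counts that the authors deposited, made with featureCounts after STAR alignment, and from the TPM values that the authors deposited per library from StringTie. Tool versions are not given in the sources used here. The labels name mm9 and the methods another build, but 83.3% of 45223 shared gene IDs had the start and end of GENCODE vM21 (GRCm38), which is used for coordinates. Deposited FPKM and coverage were not used. Counts were filtered with filterByExpr (minimum count 10), scaled by TMM and fitted by genotype with the quasi-likelihood test of edgeR 4.0.16 in R 4.3.3, two-sided, with Benjamini-Hochberg adjustment over 14828 genes. The fit was tested on simulated data. Alternatives used DESeq2 1.42.0 and limma 3.58.1 on log2(TPM + 1), other filters, a replicate block and each library left out. Depth was 33605258 to 40558740 counts per library. The members and gene lists were chosen with earlier results of these data known. Named list genes were all those past the threshold, up to 5 in each direction. Neighbours were the 4 nearest tested genes by lower coordinate. Like genes were the 3 with the highest r among genes averaging 1 or more in log2 CPM.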

Additional observations from a re-analysis of the deposited data

How the results depend on the processing

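The log2 fold changes of *Fat2*, *Fat4*, *Dchs1*, *Dchs2* and *Fjx1* kept their sign in every alternative that gave them a value (14 for *Fat2*, 12 for *Fat4*, *Dchs1* and *Dchs2*, 11 for *Fjx1*), and that of *Fat1* lay between −0.61 and 0.10 with each library left out, positive without KO replicate 1. On log2(TPM + 1) the value of *Fat2* was −1.89 and on log2(TPM + 0.1) it was −4.48. Without a filter, log2(TPM + 1) gave −0.35 for *Dchs1* and 0.56 for *Dchs2*, since the pseudocount exceeds their TPM. Low counts limit *Fjx1* and *Fat3* in both genotypes, *Dchs1* and *Fat2* in KO and *Dchs2* in WT.

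Counts of calls depended on the libraries and on the tool and filter. With each library left out in turn, calls ranged from 933 to 4712 over all genes, from 1 to 9 among the partners, from 2 to 12 in the Hippo pathway, from 1 to 7 among YAP and TAZ targets and from 0 to 6 in planar cell polarity. By limma on log2(TPM + 1) without a filter they were 1075, 1, 3, 0 and 0 in that order, with 7 targets and 4 polarity genes at an unadjusted p under 0.05, and with the filter polarity had 2. The Hippo pathway had 11 calls by DESeq2 and 12 without the filter on counts, where the targets had 9. *Ptprf* and *Mob1b* kept their calls in all 14 alternatives, and the other 20 named list genes each lost theirs in at least 1.

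With a replicate block the counts were 2520 over all genes, 4 among the partners, 7 in the Hippo pathway, 5 among targets and 3 in planar cell polarity. The libraries share only a number: same-numbered deviations correlated at 0.137, −0.116 and 0.00413, so no pairing was used.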
